A study of Mus musculus with 12 samples.

Results

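The expression of 6 genes of mitochondrial respiration and energy supply was examined across 4 mouse cell types: the respiratory chain subunits Ndufa9, Sdhd and Cox5a, the pyruvate dehydrogenase subunit Dlat, the mitochondrial creatine kinase Ckmt1 and the mitochondrial RNA-binding protein Tbrg4. They were taken by gene name from a table of 99 genes, in which each of the 6 names was found once. RNA was sequenced from 3 independent cultures of each cell type, 12 libraries in all. The iMSCs (genotype label Reprogramming) were induced mesenchymal stem cells, made by turning iPSCs into embryoid bodies and treating these with TGF-beta1 (10 ng/ml) and bFGF (5 ng/ml). The iPSCs (genotype label Reprogramming) were induced pluripotent stem cells, reprogrammed from fibroblasts with a Sendai virus that carries human OCT4, SOX2, KLF4 and c-MYC, and they were picked as colonies and grown over a layer of inactivated feeder cells. The BMSCs (WT) were mesenchymal stem cells from the marrow of the mouse femur. The Fibs (WT) were skin fibroblasts from the ears of female C57BL/6 mice, 8 weeks old. The medium went with the cell type: low-sugar DMEM with FBS for iMSCs and BMSCs, DMEM/F-12 with serum replacement and LIF for iPSCs, and high-sugar DMEM with FBS for Fibs. In comparisons other than iMSCs against BMSCs, medium and cell type cannot be told apart. The treatment with TGF-beta1 and bFGF was given for iMSCs alone. In each comparison of iMSCs, that with BMSCs included, it cannot be told apart from the cell type.

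Mitochondria oxidise pyruvate and other fuels. The respiratory chain passes the electrons from complex I or complex II through complexes III and IV to oxygen. In doing so it builds the proton gradient that drives ATP synthase. Complex I accepts electrons from NADH, complex II (succinate dehydrogenase, also an enzyme of the citrate cycle) accepts them from succinate, and complex IV (cytochrome c oxidase) hands them to oxygen. Pluripotent cells are known for a strong use of glycolysis, and a shift towards oxidative phosphorylation commonly goes with their differentiation. The 6 genes lie in the nucleus, and their proteins are imported into mitochondria.

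The levels are FPKM, a fragment count corrected for transcript length and library size. The library totals that count and FPKM imply were 66116449 to 77355177 counts, and the 99 genes held 0.365 to 0.485% of them. A gene was tested if 3 or more of the 12 libraries reached an FPKM of 1, which left 70 genes. The other 5 genes of interest had an FPKM above 1 in every library, whereas Ckmt1 passed only through iPSCs and therefore had to differ. In the following, rose and fell mean an adjusted p under 0.05 from the quasi-likelihood test of edgeR, with the library totals as scaling and adjustment over the 70 genes. One library, iMSC replicate 2, stood apart: the root mean square of its log2 differences from the other two libraries of its cell type was 0.689, against 0.127 to 0.392 for the other 11 libraries, and the tests of iMSCs are given with and without it. That library was singled out from the same 70 genes that were then tested without it. The smaller spread in those tests, and so their smaller p-values, follow in part from this choice. For them rose, fell and passed are a description. Of the marker genes listed for these cells, the adhesion gene Cdh1 (1 of 10 pluripotency markers among the 99 genes) had an FPKM of 0.312 to 0.672 in iMSCs, 132 to 143 in iPSCs, 0.0446 to 0.127 in BMSCs and 0.0364 to 0.117 in Fibs. The leukocyte gene Itgb2, the single one of 9 leukocyte markers among the 99 genes, had an FPKM of 0.363 to 1.19 across the 12 libraries. Of 14 markers of mesenchymal stromal cells and fibroblasts the table held 2, which did not order the cell types alike. Cav2, a caveolin, had an FPKM of 4.09 to 6.55 in iMSCs, 1.67 to 1.81 in iPSCs, 7.07 to 7.95 in BMSCs and 12.2 to 14.9 in Fibs. Itga5, an integrin subunit of the fibronectin receptor, had an FPKM of 79.4 to 177 in iMSCs, 55.99 to 60.5 in iPSCs, 61.4 to 63.1 in BMSCs and 35.7 to 39.997 in Fibs, and so was higher in iPSCs than in Fibs.

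Promoter sequences were taken from RefSeq (mouse genome GRCm38.p6), where all 6 symbols matched. Each runs from 250 bases before the transcription start (bases 1 to 250) to 50 bases after it, in the direction of transcription. They are printed for Ndufa9 and Sdhd, whose levels followed each other most closely, for Tbrg4, whose level was graded over the cell types, and for Ckmt1, which was read at an appreciable level in iPSCs. A set of 6 motifs of factors known from promoters of nuclear genes for mitochondrial proteins were searched on both strands, and matches are in capitals: NRF1 (GCGC, any 1 base, then TGCGC), ETS (CCGGAAG), YY1 (AANATGGCG), CRE (TGACGTCA), ERR (TNAAGGTCA) and SP1 (GGGCGG). No match overlapped another in the 4 sequences. The Ndufa9 promoter is chr6:126849095-126849394 (minus strand), that of Sdhd chr9:50603800-50604099 (minus strand), that of Tbrg4 chr11:6626018-6626317 (minus strand) and that of Ckmt1 chr2:121357526-121357825 (plus strand).
Ndufa9: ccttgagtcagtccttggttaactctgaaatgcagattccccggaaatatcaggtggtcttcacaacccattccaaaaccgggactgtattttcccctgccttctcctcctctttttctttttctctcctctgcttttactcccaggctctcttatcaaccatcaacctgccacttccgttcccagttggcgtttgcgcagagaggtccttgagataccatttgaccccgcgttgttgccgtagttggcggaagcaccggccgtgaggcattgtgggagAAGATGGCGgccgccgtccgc
Sdhd: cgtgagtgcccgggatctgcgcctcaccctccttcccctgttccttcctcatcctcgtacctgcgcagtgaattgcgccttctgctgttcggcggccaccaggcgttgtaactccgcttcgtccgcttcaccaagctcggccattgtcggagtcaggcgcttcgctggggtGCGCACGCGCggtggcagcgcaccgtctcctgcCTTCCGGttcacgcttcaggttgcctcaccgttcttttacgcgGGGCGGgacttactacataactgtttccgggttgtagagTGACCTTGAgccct
Tbrg4: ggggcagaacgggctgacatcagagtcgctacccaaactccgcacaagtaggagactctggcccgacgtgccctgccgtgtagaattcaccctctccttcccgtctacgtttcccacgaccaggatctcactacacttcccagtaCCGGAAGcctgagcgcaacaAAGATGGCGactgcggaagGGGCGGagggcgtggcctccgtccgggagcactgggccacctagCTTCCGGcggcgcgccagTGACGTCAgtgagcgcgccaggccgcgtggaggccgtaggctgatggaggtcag
Ckmt1: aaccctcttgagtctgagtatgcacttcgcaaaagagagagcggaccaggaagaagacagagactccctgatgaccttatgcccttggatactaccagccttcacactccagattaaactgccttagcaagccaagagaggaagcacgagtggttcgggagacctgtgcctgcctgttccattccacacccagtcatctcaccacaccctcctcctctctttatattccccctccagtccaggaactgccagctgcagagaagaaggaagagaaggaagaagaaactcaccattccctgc

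The Sdhd promoter held an NRF1 match (bases 172 to 181), an ETS match (205 to 211), an SP1 match (248 to 253) and an ERR match (287 to 295). The Tbrg4 promoter held 2 ETS matches (146 to 152 and 229 to 235), a YY1 match (166 to 174), an SP1 match (185 to 190) and a CRE match across the start (247 to 254). Ndufa9 had a YY1 match (280 to 288), with the same 9 letters as that of Tbrg4. None of these letter strings was found in the Ckmt1 window or in that of its other RefSeq start. Of all 32851 promoters of this length, NRF1 was matched in 4.60%, ETS in 8.86%, YY1 in 2.38%, CRE in 1.79%, ERR in 1.28% and SP1 in 35.7%. The promoters of Cox5a and Dlat held SP1 matches alone. The number of CpG dinucleotides was 35 in the Cox5a window, 29 in Sdhd, 27 in Tbrg4, 18 in Dlat and 15 in Ndufa9, against a median of 7 over all promoters, and it was 4 and 10 in the windows of Ckmt1. A match describes letters in a window and was not tested for binding.

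Ndufa9 encodes an accessory subunit of complex I and lies on the minus strand of chromosome 6 (126821721 to 126849125). In replicates 1, 2 and 3 its FPKM was 34.5, 52.7 and 37.2 in iMSCs, 39.9, 44.9 and 41.1 in iPSCs, 43.8, 42.4 and 39.2 in BMSCs, and 24.8, 23.8 and 26.2 in Fibs. The Fib libraries lay below all others, and the ranges of the other 3 cell types overlapped. The mean FPKM was 41.5 ± 9.79 in iMSCs, 42.0 ± 2.64 in iPSCs, 41.8 ± 2.40 in BMSCs and 24.9 ± 1.21 in Fibs (SD, n = 3 each). Ndufa9 rose in iMSCs against Fibs (log2 fold change 0.73, SE 0.18, edgeR adjusted p = 0.0165, and 0.52 without iMSC replicate 2), in iPSCs against Fibs (0.75, SE 0.065, edgeR adjusted p = 2.13e-05) and in BMSCs against Fibs (0.75, SE 0.062, edgeR adjusted p = 1.20e-05). The first of these calls was lost when any 1 of the 3 Fib libraries was left out (edgeR adjusted p 0.0515 to 0.0582, within 0.000494 to 0.0582 over all alternatives).

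Among iMSCs, iPSCs and BMSCs the order of the Ndufa9 means carried no difference beyond the spread. The log2 fold change of iMSCs over BMSCs was -0.011 (95% interval -0.45 to 0.42), and that of iPSCs over BMSCs was 0.0057 (-0.15 to 0.16). Without iMSC replicate 2, Ndufa9 fell in iMSCs against BMSCs (-0.22, SE 0.069, edgeR adjusted p = 0.0241) and against iPSCs (-0.23, SE 0.074, edgeR adjusted p = 0.0264). With all 3 iMSC libraries the difference from iPSCs was -0.017 (95% interval -0.46 to 0.42) with library totals and 0.43 with TMM scaling. In iPSCs against BMSCs it was 0.0057 with library totals and -0.30 with TMM scaling (edgeR adjusted p = 0.00252, within 0.00252 to 0.968 over the alternatives). The direction of Ndufa9 in iPSCs against BMSCs therefore depended on the scaling. TMM sets the libraries level over the 70 genes, and it moved the median log2 fold change of all 70 by 0.42 in iMSCs against iPSCs, by -0.31 in iPSCs against BMSCs and by -0.46 in iPSCs against Fibs, and by under 0.1 in the other 3 comparisons. The calls among the 70 genes then split into 29 higher and 26 lower in iMSCs against iPSCs (19 and 34 with library totals), 29 and 30 in iPSCs against BMSCs (36 and 19), and 32 and 30 in iPSCs against Fibs (38 and 23).

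Sdhd encodes a membrane anchor subunit of complex II and lies on the minus strand of chromosome 9 (50596357 to 50603812). Its FPKM in replicates 1, 2 and 3 was 71.1, 96.4 and 70.5 in iMSCs, 94.0, 97.0 and 95.2 in iPSCs, 96.7, 93.1 and 90.4 in BMSCs, and 55.4, 57.6 and 62.3 in Fibs. Fibs were again lowest without overlap, and iMSC replicates 1 and 3 lay between the Fibs and the other libraries, while iMSC replicate 2 lay among iPSCs and BMSCs. The mean FPKM was 79.4 ± 14.8 in iMSCs, 95.4 ± 1.49 in iPSCs, 93.4 ± 3.19 in BMSCs and 58.4 ± 3.52 in Fibs (SD, n = 3 each). By these means Sdhd was the third most abundant of the 99 genes in iMSCs and in Fibs, and the second in iPSCs and in BMSCs.

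Sdhd rose in iPSCs against Fibs (log2 fold change 0.71, SE 0.052, edgeR adjusted p = 8.33e-06) and in BMSCs against Fibs (0.68, SE 0.057, edgeR adjusted p = 1.29e-05). It also passed in iMSCs against Fibs (0.44, SE 0.15, edgeR adjusted p = 0.0485), but this call was lost in 12 of 16 alternatives, in which the adjusted p reached 0.155 and the fold change kept its sign. Without iMSC replicate 2 Sdhd rose by less in iMSCs against Fibs (0.28, SE 0.066, edgeR adjusted p = 0.00820). In iPSCs against BMSCs the difference was 0.030 (95% interval -0.0725 to 0.13) with library totals and -0.28 with TMM scaling (edgeR adjusted p = 0.000407, within 0.000103 to 0.901 over the alternatives). iMSCs did not differ from BMSCs beyond the spread with 3 libraries (-0.24, 95% interval -0.60 to 0.13), and without iMSC replicate 2 Sdhd fell in iMSCs against BMSCs (-0.40, SE 0.053, edgeR adjusted p = 0.000351). Against iPSCs the difference of iMSCs was -0.27 (95% interval -0.64 to 0.11) with library totals and 0.18 with TMM scaling, and without iMSC replicate 2 it was -0.43 (SE 0.048, edgeR adjusted p = 0.000146).

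Cox5a encodes a nuclear subunit of complex IV and lies on the plus strand of chromosome 9 (57521274 to 57532426). Its FPKM in replicates 1, 2 and 3 was 21.0, 40.9 and 23.9 in iMSCs, 59.8, 68.6 and 61.1 in iPSCs, 26.0, 30.0 and 28.5 in BMSCs, and 20.9, 18.7 and 19.4 in Fibs. The iPSC libraries lay above all others, Fibs were lowest, and iMSC replicate 2 was the one library outside iPSCs above the BMSC range. The mean FPKM was 28.6 ± 10.7 in iMSCs, 63.2 ± 4.73 in iPSCs, 28.2 ± 2.00 in BMSCs and 19.6 ± 1.11 in Fibs (SD, n = 3 each). In contrast to Ndufa9 and Sdhd, Cox5a rose in iPSCs against BMSCs as well (log2 fold change 1.16, SE 0.075, edgeR adjusted p = 2.32e-06), and it rose in iPSCs against Fibs (1.69, SE 0.070, edgeR adjusted p = 3.89e-07).

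Cox5a fell in iMSCs against iPSCs (log2 fold change -1.14, SE 0.26, edgeR adjusted p = 0.00808), and this difference was -1.49 without iMSC replicate 2 (edgeR adjusted p = 8.00e-06) and -0.68 with TMM scaling, where the call was lost (edgeR adjusted p = 0.0982, the largest over the alternatives). It rose in BMSCs against Fibs (0.52, SE 0.070, edgeR adjusted p = 0.000193), a call that was lost with all 12 libraries in 1 fit (edgeR adjusted p = 0.0516, the largest over the alternatives). In iMSCs against Fibs the libraries did not overlap, and the difference was 0.54 (95% interval -0.090 to 1.17, edgeR adjusted p = 0.126). It was 0.19 without iMSC replicate 2 (SE 0.087, edgeR adjusted p = 0.0901), and with all 12 libraries in 1 fit it passed (edgeR adjusted p = 0.0382, within 0.0382 to 0.283 over the alternatives). Against BMSCs the difference of iMSCs was 0.021 (95% interval -0.60 to 0.64), and without iMSC replicate 2 Cox5a fell in iMSCs (-0.33, SE 0.087, edgeR adjusted p = 0.0131). A long noncoding RNA gene on the other strand, Gm26631, overlaps 1140 bases of Cox5a, and the antisense gene 1700018A23Rik overlaps 2801 bases of the Ndufa9 locus. Reads of such partners could not be told apart without the strand setting of the counting.

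Dlat encodes the E2 subunit of the pyruvate dehydrogenase complex, the dihydrolipoamide acetyltransferase that passes the acetyl group of pyruvate to coenzyme A, and lies on the minus strand of chromosome 9 (50634633 to 50659780), 30.82 kb from Sdhd. Its FPKM in replicates 1, 2 and 3 was 12.02, 9.24 and 11.2 in iMSCs, 17.4, 17.9 and 19.2 in iPSCs, 12.13, 11.996 and 11.24 in BMSCs, and 15.1, 13.4 and 15.2 in Fibs. The iPSC libraries were highest, the Fib libraries came next, and iMSCs and BMSCs overlapped below them, so that Fibs here stood above both mesenchymal stem cell types. The mean FPKM was 10.8 ± 1.43 in iMSCs, 18.1 ± 0.929 in iPSCs, 11.8 ± 0.481 in BMSCs and 14.6 ± 0.985 in Fibs (SD, n = 3 each). Dlat fell in iMSCs against iPSCs (log2 fold change -0.74, SE 0.13, edgeR adjusted p = 0.0026, and -0.64 without iMSC replicate 2) and in BMSCs against Fibs (-0.31, SE 0.064, edgeR adjusted p = 0.00244), and it rose in iPSCs against BMSCs (0.62, SE 0.059, edgeR adjusted p = 2.43e-05).

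Dlat also fell in iMSCs against Fibs (-0.43, SE 0.13, edgeR adjusted p = 0.0296), a call that was lost without any 1 Fib library (edgeR adjusted p 0.0568 to 0.103) and without iMSC replicate 3 (0.0708), and that held without iMSC replicate 2 (-0.33, edgeR adjusted p = 0.00776). In iPSCs against Fibs the direction depended on the scaling: Dlat rose with library totals (0.31, SE 0.066, edgeR adjusted p = 0.00274) and fell with TMM scaling (-0.14, edgeR adjusted p = 0.0459, within 0.00153 to 0.114 over the alternatives). The median of all 70 genes in that comparison was 0.57, above the Dlat value. iMSCs against BMSCs gave -0.12 (95% interval -0.43 to 0.18, edgeR adjusted p = 0.543), and -0.022 without iMSC replicate 2.

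**Figure D1:**
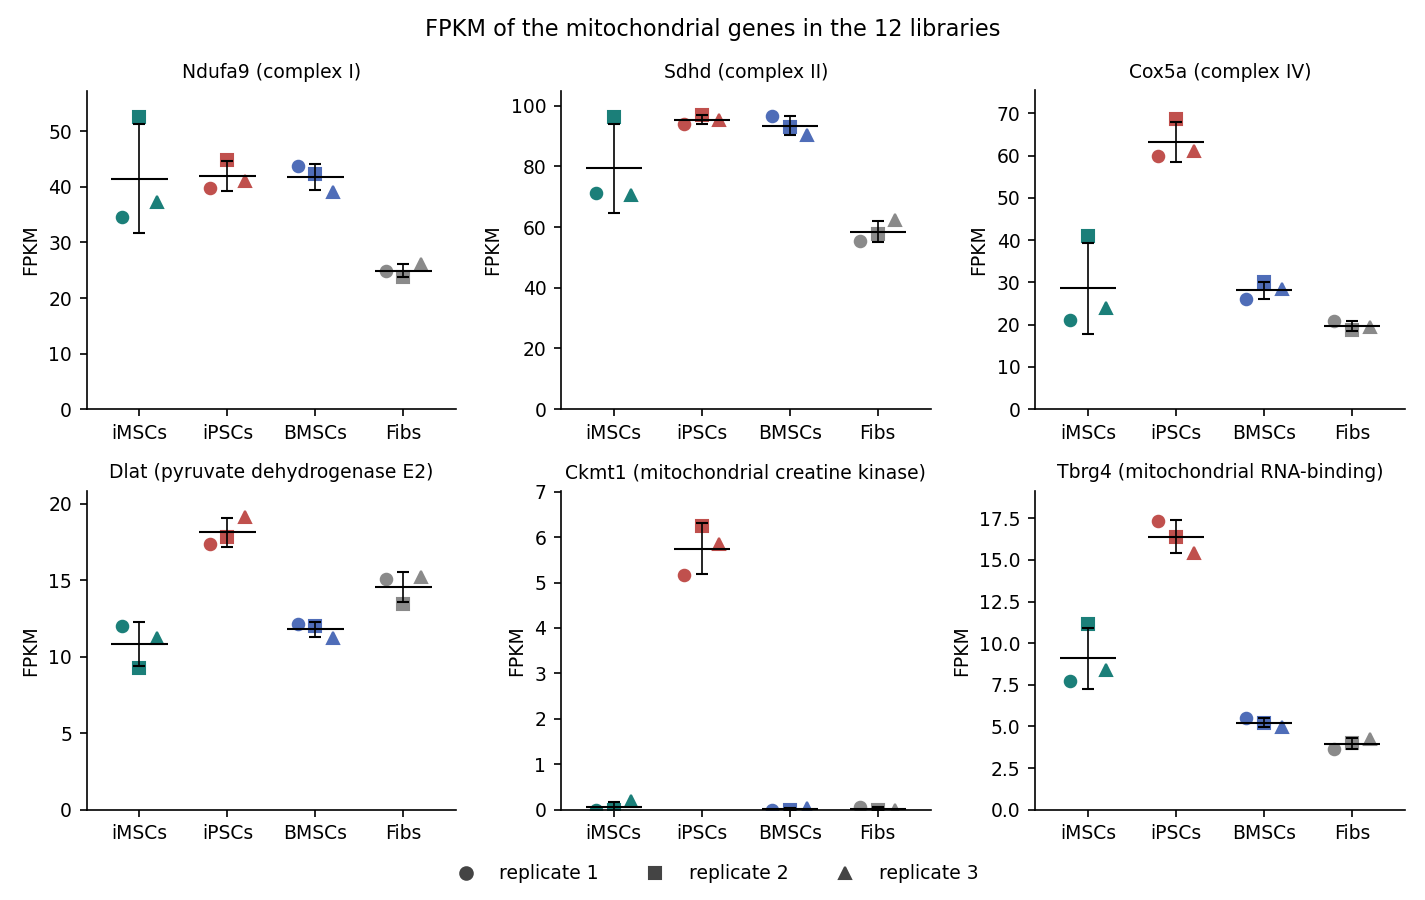
FPKM (y axis, from 0, with a scale for each panel) of the 6 genes in 3 iMSC, 3 iPSC, 3 BMSC and 3 Fib libraries (x axis). Each point is a library, its shape is the replicate number, and the lines show the mean and the SD (n = 3). Fibs were lowest for Ndufa9 and Sdhd (means of 24.9 and 58.4), iPSCs were highest for Cox5a, Dlat, Ckmt1 and Tbrg4, and iMSC replicate 2 lay above the other iMSC libraries for Ndufa9, Sdhd, Cox5a and Tbrg4 and below them for Dlat.

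Ckmt1 encodes the ubiquitous mitochondrial creatine kinase, which moves phosphate from ATP to creatine in the intermembrane space, and lies on the plus strand of chromosome 2 (121357714 to 121363737). Its counts in replicates 1, 2 and 3 were 0, 0 and 36 in iMSCs, 921, 1161 and 1131 in iPSCs, 0, 0 and 8 in BMSCs, and 12, 0 and 0 in Fibs. Each iPSC library was far above the other 9, in 6 of which the count was 0. The FPKM was 5.16, 6.25 and 5.84 in iPSCs, which gave Ckmt1 rank 47 of the 99 genes there. Per library total, the Ckmt1 counts of iPSCs were 83.7 times those of iMSCs (95% counting interval 43.9 to 184), 386 times those of BMSCs (107 to 3194) and 251 times those of Fibs (85.7 to 1222). Low counts in the table came in steps of 4 (61 of 77 counts from 1 to 13 were multiples of 4), so these intervals rest on counts after division by 4 and hold the counting error alone. In iMSCs, BMSCs and Fibs alike the counts came from 1 library, so the folds describe these libraries. Without that library only a lower bound for the 2 remaining libraries is left. For it a floor of 3 steps of 4 was set, 12 counts over these 2 libraries. Against this floor iPSCs were at least 164-fold higher than iMSCs, 169.8-fold higher than BMSCs and 169.5-fold higher than Fibs. These bounds were chosen after the data had been seen, and they do not hold for the cell types. That for iMSCs lies above the 83.7-fold of all 3 iMSC libraries.

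Differences in Ckmt1 among iMSCs, BMSCs and Fibs were not detectable at these counts and with this spread between libraries. The fitted fold changes of iMSCs over BMSCs and over Fibs changed sign without iMSC replicate 3, which held all 36 counts of the iMSCs. In that library Cdh1, the marker of iPSCs named above, had an FPKM of 0.672, against 0.572 and 0.312 in iMSC replicates 1 and 2, and its part in the Ckmt1 counts was not tested. Ckmt1 shares 10 bases at its end with Strc, a gene of the opposite strand.

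Tbrg4 (also called FASTKD4) encodes a protein of the FASTK family that binds RNA in mitochondria and, in human cells, keeps several mitochondrial messenger RNAs stable. It lies on the minus strand of chromosome 11 (6615598 to 6626067) and hosts the small nucleolar RNA genes Snora5c and Gm24313 on the same strand. The part of these RNA genes in the Tbrg4 counts was not tested. The FPKM of Tbrg4 in replicates 1, 2 and 3 was 7.72, 11.1 and 8.39 in iMSCs, 17.4, 16.4 and 15.4 in iPSCs, 5.52, 5.23 and 4.94 in BMSCs, and 3.63, 4.03 and 4.25 in Fibs. No 2 cell types overlapped, and the order from high to low was iPSCs, iMSCs, BMSCs and Fibs. The mean FPKM was 9.08 ± 1.81 in iMSCs, 16.4 ± 0.980 in iPSCs, 5.23 ± 0.293 in BMSCs and 3.97 ± 0.315 in Fibs (SD, n = 3 each).

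Tbrg4 rose in iMSCs against BMSCs (log2 fold change 0.79, SE 0.17, edgeR adjusted p = 0.0249). The difference was 0.62 without iMSC replicate 2 (SE 0.094, edgeR adjusted p = 0.000689), and the call was lost without any 1 BMSC library (edgeR adjusted p 0.0867 to 0.109), without iMSC replicate 3 (0.0738) and with a replicate block (0.116), the largest over the alternatives. Tbrg4 rose in iMSCs against Fibs (1.19, SE 0.18, edgeR adjusted p = 0.00286, and 1.02 without iMSC replicate 2), in iPSCs against Fibs (2.04, SE 0.095, edgeR adjusted p = 7.47e-07) and in iPSCs against BMSCs (1.64, SE 0.077, edgeR adjusted p = 3.62e-07). It fell in iMSCs against iPSCs (-0.85, SE 0.16, edgeR adjusted p = 0.00353), where leaving out iMSC replicate 2 gave -1.02, and TMM scaling gave -0.41 and ended the call (edgeR adjusted p = 0.132, the largest over the alternatives). It rose in BMSCs against Fibs (0.40, SE 0.11, edgeR adjusted p = 0.0111), and without BMSC replicate 1 this was 0.35 (edgeR adjusted p = 0.0603, the largest over the alternatives). Since these are bulk samples, fewer cells of a type and less RNA per cell cannot be told apart for this or any other of the genes.

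**Figure D2:**
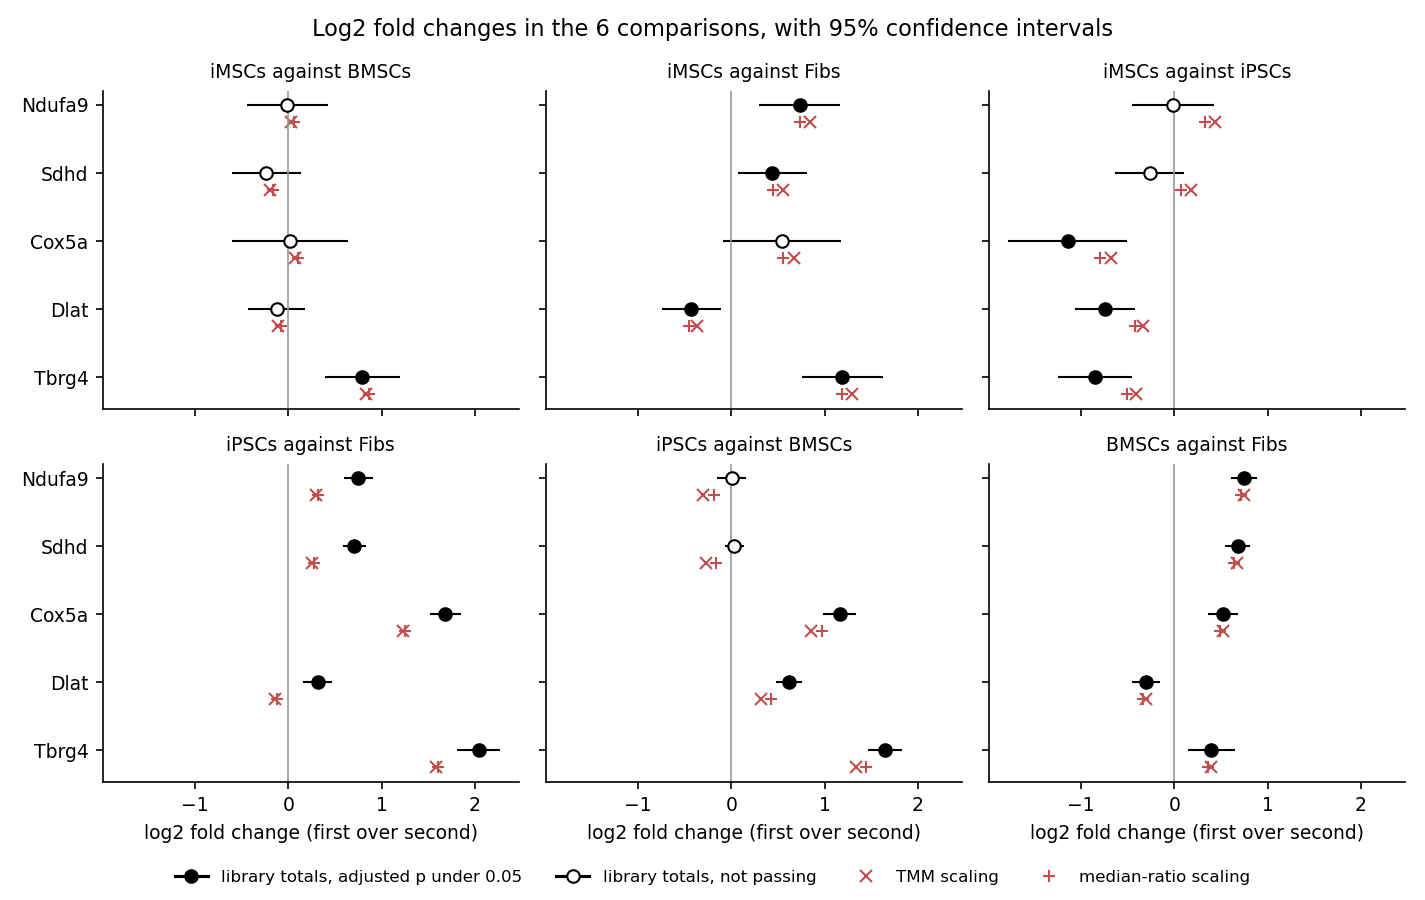
Log2 fold changes (x axis, first cell type over second) of 5 genes (y axis) in the 6 comparisons. Circles give the edgeR value scaled by library totals, filled where the adjusted p was under 0.05, with 95% confidence intervals, and crosses and plus signs give the values with TMM and median-ratio scaling. Ckmt1 is left out because most of its counts outside iPSCs were 0. The crosses lie farthest from the circles in the comparisons with iPSCs: for Ndufa9 in iPSCs against BMSCs the cross is at -0.30 and the circle at 0.0057.

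Counted over the 5 genes other than Ckmt1, the comparisons differed in how many passed. The 6 comparisons share libraries, so these counts are not independent of each other. In iMSCs against BMSCs 1 of 5 passed, Tbrg4, where 17.1% of the 70 genes did (10.0% higher in iMSCs). Without iMSC replicate 2, 4 of the 5 passed (Tbrg4 higher in iMSCs, Ndufa9, Sdhd and Cox5a lower), where 58.6% of the 70 genes did (31.4% higher, 27.1% lower). The median log2 fold change was -0.011 for the 5 genes and 0.038 for all 70.

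In iMSCs against Fibs 4 of 5 passed, where 55.7% of the 70 did: Ndufa9, Sdhd and Tbrg4 were higher in iMSCs (background 27.1%) and Dlat was lower (background 28.6%). The median was 0.54 for the 5 genes and 0.087 for all 70. Without iMSC replicate 2 the same 4 genes passed in the same directions, where 67.1% of the 70 did (34.3% higher, 32.9% lower). In iMSCs against iPSCs 3 of 5 passed, Cox5a, Dlat and Tbrg4, each lower in iMSCs, where 75.7% of the 70 passed and 48.6% were lower. Without iMSC replicate 2 the 5 genes all passed as lower in iMSCs, where 81.4% of the 70 passed and 50.0% were lower. With TMM scaling 1 of 5 passed, Dlat, where 78.6% of the 70 did. With library totals and all 3 iMSC libraries the median was -0.74 for the 5 genes and -0.29 for all 70. With TMM scaling the median of all 70 was 0.14.

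In iPSCs against Fibs 5 of 5 passed with library totals and were higher in iPSCs, where 87.1% of the 70 passed and 54.3% were higher. Dlat was the one with another direction under TMM scaling. With library totals the median was 0.75 for the 5 genes and 0.57 for all 70. With TMM scaling the median of all 70 was 0.12. In iPSCs against BMSCs 3 of 5 passed, Cox5a, Dlat and Tbrg4, each higher in iPSCs, where 78.6% of the 70 passed and 51.4% were higher. This tally depended on the scaling: with TMM, median-ratio scaling and DESeq2 with its own size factors 5 of 5 passed, these 3 higher in iPSCs and Ndufa9 and Sdhd lower, where 84.3%, 81.4% and 82.9% of the 70 passed. With library totals the median was 0.62 for the 5 genes and 0.26 for all 70. With TMM scaling the median of all 70 was -0.048. In BMSCs against Fibs 5 of 5 passed, where 75.7% of the 70 did: Ndufa9, Sdhd, Cox5a and Tbrg4 were higher in BMSCs (background 38.6%) and Dlat was lower (background 37.1%). The median was 0.52 for the 5 genes and -0.058 for all 70. When an absolute log2 fold change over 1 was asked for as well, Cox5a and Tbrg4 remained in iPSCs against Fibs and in iPSCs against BMSCs, Tbrg4 remained in iMSCs against Fibs and Cox5a in iMSCs against iPSCs, and the largest absolute value among the 5 genes was 0.79 in iMSCs against BMSCs and 0.75 in BMSCs against Fibs. Of the 70 genes, this stricter call kept 5.71% in iMSCs against BMSCs, 38.6% in iMSCs against Fibs, 54.3% in iMSCs against iPSCs, 54.3% in iPSCs against Fibs, 48.6% in iPSCs against BMSCs and 25.7% in BMSCs against Fibs.

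**Figure D3:**
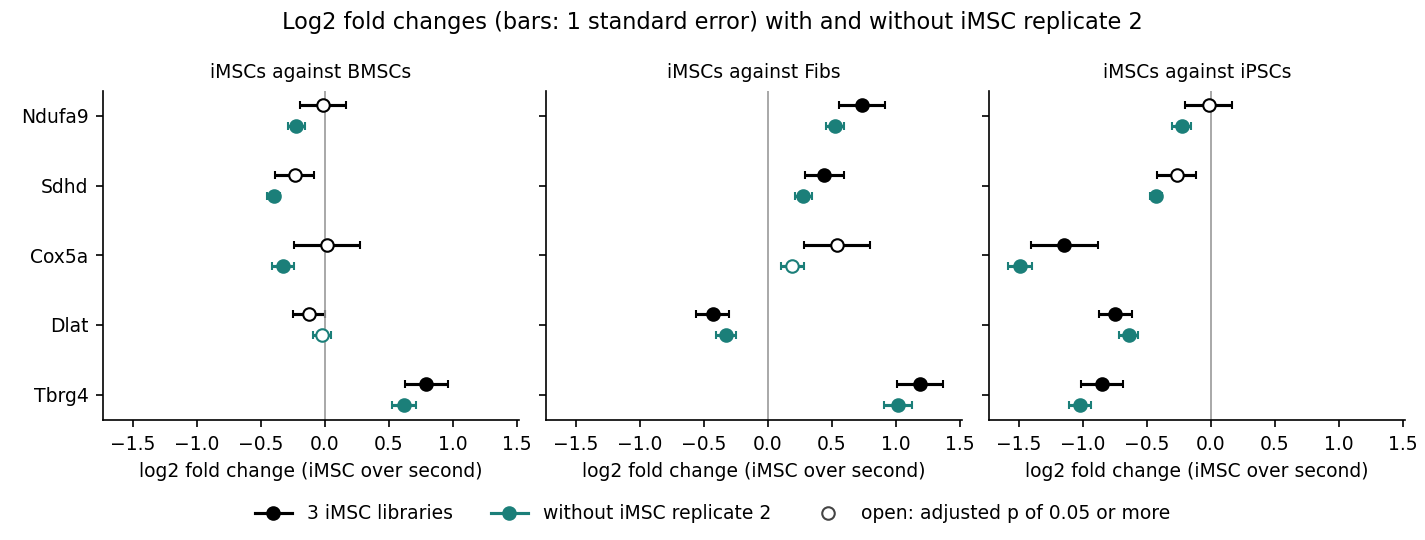
Log2 fold changes (x axis, iMSC over the second cell type) of 5 genes (y axis) with 3 iMSC libraries (black) and without iMSC replicate 2 (green). Bars are 1 standard error, and open circles mark an adjusted p of 0.05 or more. Without that library the values of Ndufa9, Sdhd, Cox5a and Tbrg4 moved down and those of Dlat moved up, and the standard errors shrank, for Sdhd against BMSCs to 0.053, against 0.15 with 3 libraries.

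The 6 genes did not move together in iMSC replicate 2. Its FPKM was 1.82 times the mean of iMSC replicates 1 and 3 for Cox5a, 1.47 times for Ndufa9, 1.38 times for Tbrg4 and 1.36 times for Sdhd. For Dlat it was 0.796 times that mean, and Ckmt1 had no count there. The library total was 70614159 counts, between those of the other iMSC libraries, and Cdh1 was lower in it than in the other iMSC libraries. The mesenchymal markers moved in opposite directions in iMSC replicate 2: Itga5 had an FPKM of 177 there, against 79.4 and 83.2 in iMSC replicates 1 and 3, and Cav2 had 4.09, against 6.55 and 6.14. The part of these differences in the values of the 6 genes was not tested.

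Ratios of FPKM within a library do not depend on its total and so are free of the scaling. Sdhd over Ndufa9 was 1.93 ± 0.118 in iMSCs, 2.28 ± 0.105 in iPSCs, 2.24 ± 0.0618 in BMSCs and 2.35 ± 0.101 in Fibs (SD, n = 3 each), and it stayed between 1.83 and 2.42 in all 12 libraries. The iMSC libraries were the 3 lowest, with 2.06, 1.83 and 1.896. Ndufa9 over Cox5a, the transcript of a complex I subunit over that of a complex IV subunit, was 1.496 ± 0.185 in iMSCs, 0.665 ± 0.00859 in iPSCs, 1.49 ± 0.169 in BMSCs and 1.27 ± 0.0808 in Fibs. It was below 1 in every iPSC library and above 1 in every other, so in iPSCs Cox5a stood above Ndufa9.

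Tbrg4 over Ndufa9 was 0.224, 0.211 and 0.225 in iMSCs, 0.435, 0.365 and 0.375 in iPSCs, 0.126, 0.123 and 0.126 in BMSCs, and 0.146, 0.170 and 0.162 in Fibs. The cell types did not overlap in this ratio, and iMSC replicate 2 was close to the other iMSC libraries in it. Dlat over Ndufa9 was 0.275 ± 0.0893 in iMSCs, 0.433 ± 0.0347 in iPSCs, 0.282 ± 0.00521 in BMSCs and 0.585 ± 0.0212 in Fibs, highest in the cell type with the lowest Ndufa9. These ratios are a description, and no test was run on them.

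**Figure D4:**
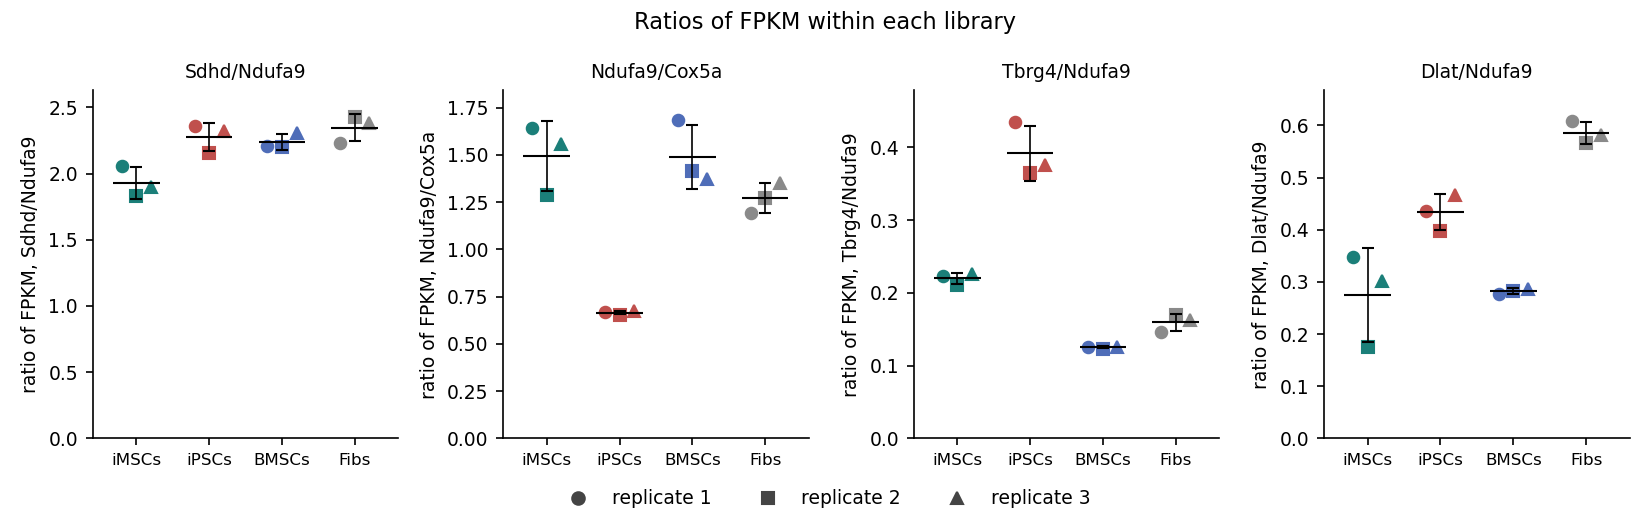
Ratios of FPKM within a library (y axis, from 0) for 4 pairs of genes in the 4 cell types (x axis). Points are libraries, shaped by replicate number, and lines are the mean and SD (n = 3). Sdhd over Ndufa9 lay between 1.83 and 2.42 throughout, Ndufa9 over Cox5a was lowest in iPSCs (0.665 ± 0.00859), and Tbrg4 over Ndufa9 separated the 4 cell types.

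Of a list of 166 other genes of mitochondrial energy metabolism and its control, Dbt was the one among the 99 genes. Dbt encodes the E2 subunit of the branched-chain 2-oxo acid dehydrogenase complex, a relative of Dlat that acts on the breakdown of branched-chain amino acids. The FPKM of Dbt in replicates 1, 2 and 3 was 3.49, 1.40 and 2.80 in iMSCs, 10.3, 9.79 and 10.2 in iPSCs, 4.21, 5.18 and 4.13 in BMSCs, and 6.12, 6.22 and 6.61 in Fibs. The cell types did not overlap and had the same order as the means of Dlat, with iPSCs highest, then Fibs, BMSCs and iMSCs. Dbt fell in iMSCs against iPSCs (log2 fold change -1.98, SE 0.33, edgeR adjusted p = 0.00219, and -1.68 without iMSC replicate 2) and against Fibs (-1.30, SE 0.34, edgeR adjusted p = 0.0183, and -1.004 without iMSC replicate 2). The call against Fibs was lost without any 1 Fib library (edgeR adjusted p up to 0.0590, the largest over the alternatives). In iMSCs against BMSCs it was -0.81 (SE 0.34, edgeR adjusted p = 0.162), and without iMSC replicate 2 it fell (-0.52, SE 0.16, edgeR adjusted p = 0.0225).

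Atp5pb, a subunit of the peripheral stalk of ATP synthase, was outside that list and was added because the annotation in the table places it with Ndufa9, Sdhd and Cox5a in the KEGG pathway of oxidative phosphorylation. The FPKM of Atp5pb in replicates 1, 2 and 3 was 28.2, 20.5 and 30.0 in iMSCs, 56.0, 56.3 and 56.9 in iPSCs, 38.1, 31.6 and 36.4 in BMSCs, and 26.4, 29.8 and 29.6 in Fibs. Like Cox5a it was highest in iPSCs without overlap, but iMSC replicate 2 was its lowest library. Atp5pb fell in iMSCs against iPSCs (log2 fold change -1.11, SE 0.17, edgeR adjusted p = 0.00149, and -0.96 without iMSC replicate 2) and rose in iPSCs against Fibs (0.98, SE 0.056, edgeR adjusted p = 2.34e-06) and in iPSCs against BMSCs (0.67, SE 0.069, edgeR adjusted p = 3.88e-05). Against BMSCs the iMSC libraries were lower without overlap (-0.43, SE 0.18, edgeR adjusted p = 0.153). Without iMSC replicate 2 Atp5pb fell in iMSCs against BMSCs (-0.28, SE 0.080, edgeR adjusted p = 0.0154). In iMSCs against Fibs the difference was -0.13 (SE 0.17, edgeR adjusted p = 0.570), and 0.022 without iMSC replicate 2. Atp5pb rose in BMSCs against Fibs (0.31, SE 0.078, edgeR adjusted p = 0.00711, up to 0.0718 over the alternatives). Atp5pb shares 731 bases with Wdr77 on the other strand.

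The genes with the most similar profiles were found by the root mean square difference of log2(FPKM + 1) over the 12 libraries, each gene centred on its mean, among the 70 genes. Ndufa9 and Sdhd were each other's nearest gene (0.118), where the median distance to the other genes was 0.730 for Ndufa9 and 0.662 for Sdhd. They were followed by Ccm2 (0.194) and Gna12 (0.221) for Ndufa9, and by Rtca (0.166) and Gna12 (0.198) for Sdhd. Cox5a and Tbrg4 were among each other's nearest 3 (0.302), with Hddc2 (0.232) and Pdgfb (0.291) nearer to Cox5a and Lck (0.288) nearer to Tbrg4. Hddc2 was also the third for Tbrg4 (0.364). The added 1 flattens the differences of genes with an FPKM near or below 1, so a small distance need not mean a similar fold change. In iPSCs against Fibs the log2 fold change was 1.69 for Cox5a, 1.54 for Hddc2 and 5.69 for Pdgfb. It was 2.04 for Tbrg4 and 4.77 for Lck.

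Nearest to Dlat were Xpo6 (0.201), Axin2 (0.248) and Wnt9a (0.267). Their log2 fold changes in iPSCs against Fibs were 0.89, 1.26 and 1.36, against 0.31 for Dlat. Nearest to Ckmt1 were Bcl6b (0.169), Ngfr (0.368) and Rnf17 (0.438). Bcl6b, like Ckmt1, was high in iPSCs, with an FPKM of 0.326 ± 0.0468 in iMSCs, 5.52 ± 0.193 in iPSCs, 0.1598 ± 0.0717 in BMSCs and 0.0604 ± 0.0620 in Fibs (SD, n = 3 each). Sdhd and Dlat, 30.82 kb apart on chromosome 9, were not near each other by this measure (0.417), and Pih1d2, which lies between them 9.63 kb from Dlat, had a mean FPKM of 0.131 to 0.310 in the 4 cell types. The distances are a description over 12 libraries, which share their cell types.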

How the data were processed

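The values deposited by the authors are FPKM and whole-number counts per gene and library. Trimming, alignment and assembly were done with cutadapt 1.9, HISAT2 2.0.4 and StringTie 1.3.4d according to the submitters' processing notes. FPKM were estimated with StringTie and Ballgown, and the study tested with DESeq2. The making of the deposited counts and their strand setting are not given in the sources used here. The notes name mm9, while 85 of the 99 genes, and 5 of the 6 described, had the start and end of GENCODE M21 on GRCm38, so the coordinates of the table are used.

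Library totals were computed from count, FPKM and transcript length over 6 genes with a single transcript and at least 500 counts, which differed by at most 0.0892% within a library. Each comparison was fitted on its 6 libraries with edgeR 4.0.16 in R 4.3.3 (quasi-likelihood test, prior count 0.125, Benjamini-Hochberg adjustment over 70 genes). On simulated counts of the 70 genes, 20 of them changed by a log2 fold of 1.5, the changed genes called were 84.0% in iMSC against BMSC, 77.0% in iMSC against Fib, 96.2% in iMSC against iPSC, 100% in iPSC against Fib and against BMSC, and 98.8% in BMSC against Fib. Of the unchanged genes 0.5 to 1.6% were called. The simulation gave all genes the same dispersion and held no outlying library. Its fold was above most of those reported for the genes other than Ckmt1, so the rates do not give the power for these. Alternatives were no filter and an FPKM of at least 5, TMM and median-ratio scaling, DESeq2 1.42.0, limma 3.58.1 on log2(FPKM + 1) and log2(FPKM + 0.1), a fit over all 12 libraries, a replicate block, a fold threshold and each library left out in turn. Replicate numbers were not used as pairs: the correlation of same-numbered deviations was -0.39 to 0.44, and in none of the 6 comparisons were all 3 over 0.1. For iMSCs and iPSCs it was 0.40, 0.26 and -0.044 in replicates 1, 2 and 3. With 3 libraries per cell type this check cannot exclude a pairing, so the replicate block is given as an alternative. Replicates of a cell type differed by more than sampling noise (chi-square per degree of freedom 3.85 to 11.8, and 150 to 168 with iMSC replicate 2).

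The named genes are the 6 members, listed genes of mitochondrial energy metabolism in the table, the 3 nearest profiles of each member and genes within 10 kb. Members, lists and the named-gene rule were chosen with earlier results of these data known. The p-values measure the spread between cultures of 1 laboratory.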

Additional observations from a re-analysis of the deposited data

How the results depend on the processing

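Over the 36 fold changes of the 6 genes and 16 alternatives each (576 values), 509 kept their direction and their side of the threshold. With the sign kept, 28 lost a call and 5 gained one. Another 34 changed sign, 3 of which belonged to a call: Dlat in iPSCs against Fibs. Some of these 34 also crossed the threshold and are not among the 28 and 5. Ndufa9 and Sdhd in iPSCs against BMSCs passed as lower with TMM, median-ratio scaling and DESeq2 with its own size factors. Cox5a in iMSCs against BMSCs passed as lower without iMSC replicate 2. Dlat lost its call with median-ratio scaling and with DESeq2 and its own size factors. The 509 include fold changes that never passed. They also include Ckmt1 in its comparisons with iPSCs, where it had to differ and kept its call in 16 of 16 alternatives each. The cause was not tested, except that scaling to the 70 genes moves all genes of a comparison together. With TMM, median-ratio scaling and DESeq2 with its own size factors, Dlat was -0.14, -0.12 and -0.12 in iPSCs against Fibs. In iPSCs against BMSCs, Ndufa9 was -0.30, -0.19 and -0.19 and Sdhd -0.28, -0.17 and -0.16. In iMSCs against iPSCs, Ndufa9 was 0.43, 0.33 and 0.33 and Sdhd 0.18, 0.074 and 0.074, and in iMSCs against BMSCs Ndufa9 was 0.031, 0.065 and 0.065. Cox5a in iMSCs against BMSCs was -0.036 and -0.038 with limma (pseudocounts of 1 and 0.1).

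When each library was left out in turn, the sign changed for Ndufa9 in iMSCs against BMSCs (-0.22 to 0.10), in iMSCs against iPSCs (-0.23 to 0.099) and in iPSCs against BMSCs (-0.046 to 0.042), for Cox5a in iMSCs against BMSCs (-0.33 to 0.20), and for Ckmt1 in iMSCs against BMSCs (-4.44 to 6.57), iMSCs against Fibs (-5.05 to 6.57) and BMSCs against Fibs (-5.07 to 4.46). The number of the 6 genes that passed was then 0 to 4 in iMSCs against BMSCs (1 with all libraries) and 1 to 4 in iMSCs against Fibs (4 with all libraries), 1 without any single Fib library and 2 without iMSC replicate 3. Of the 70 genes, 1 to 41 passed in iMSCs against BMSCs (12 with all libraries, 41 without iMSC replicate 2) and 23 to 47 in iMSCs against Fibs (39 with all libraries). With TMM scaling 2 of the 6 genes, Dlat and Ckmt1, passed in iMSCs against iPSCs (4 with library totals), while 55 of the 70 genes passed (53 with library totals). An added threshold on the absolute log2 fold change of 1 left 0 in iMSCs against BMSCs, 1 in iMSCs against Fibs, 2 in iMSCs against iPSCs, 3 in iPSCs against Fibs, 3 in iPSCs against BMSCs and 0 in BMSCs against Fibs. Ckmt1, which had to differ, was among those left in each comparison with iPSCs. Of the 70 genes the threshold left 4 of 12 in iMSCs against BMSCs, 27 of 39 in iMSCs against Fibs and 38 of 53 in iMSCs against iPSCs. It left 38 of 61 in iPSCs against Fibs, 34 of 55 in iPSCs against BMSCs and 18 of 53 in BMSCs against Fibs. In iMSCs against BMSCs, 19 of the 70 genes passed with DESeq2 and its own size factors and 22 with all 12 libraries in 1 fit.

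With a replicate block, 0 of the 6 genes passed in iMSCs against BMSCs, where 1 of the 70 passed and Cox5a was -0.040, and 3 passed in iMSCs against Fibs, where Sdhd was lost (adjusted p = 0.0930) and 32 of the 70 passed (39 without the block). In the other 4 comparisons the block changed no call of the 6 genes. Outside iPSCs Ckmt1 had a count of 0 in 6 of 9 libraries, and its counts in the other 3 were 8 to 36.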

Other observations

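The spread between replicates was widest in iMSCs for each of the 5 genes other than Ckmt1. The coefficient of variation of the FPKM in iMSCs was 37.6% for Cox5a, 23.6% for Ndufa9, 19.9% for Tbrg4, 18.6% for Sdhd and 13.2% for Dlat, against 5.63 to 7.48% for Cox5a, 4.84 to 6.28% for Ndufa9, 5.60 to 7.93% for Tbrg4, 1.56 to 6.02% for Sdhd and 4.08 to 6.76% for Dlat in the other 3 cell types. Without iMSC replicate 2 it was 9.09% for Cox5a, 5.31% for Ndufa9, 5.85% for Tbrg4, 0.553% for Sdhd and 4.94% for Dlat over the remaining 2 libraries.

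The other genes described, Dbt and Atp5pb, were both low in iMSC replicate 2. Relative to the mean of iMSC replicates 1 and 3, Dbt was at 0.444 times and Atp5pb at 0.706 times, whereas Cox5a was at 1.82 times. As a result, Atp5pb over Cox5a was 0.502 in that library, against 1.34 and 1.25 in iMSC replicates 1 and 3. In the other cell types Atp5pb over Cox5a was 0.821 to 0.937 in iPSCs, 1.05 to 1.46 in BMSCs and 1.27 to 1.59 in Fibs.

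The ratio of the 2 E2 subunits, Dbt over Dlat, was 0.230 ± 0.0717 in iMSCs, 0.557 ± 0.0294 in iPSCs, 0.382 ± 0.0443 in BMSCs and 0.434 ± 0.0287 in Fibs (SD, n = 3 each). The iMSC libraries lay below all others, and the iPSC libraries above all others. This ratio was looked at after the values had been seen, and it was not tested.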
